A study of Mus musculus with 10 samples.

Results

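Regions of accessible chromatin at 10 genes for effector molecules of group 2 innate lymphoid cells (ILC2s) outside the canonical type 2 cytokines were examined across 5 tissues. The genes are *Areg*, *Csf2*, *Il3*, *Il9*, *Il10*, *Il6*, *Arg1*, *Tph1*, *Penk*, and *Calca*. A region was taken when its centre lay inside one of these genes or when the nearest transcription start site (TSS) of a curated RefSeq transcript was one of theirs, which gave 64 of the 50039 regions in the table. The rule used position alone and no measured value. ATAC-seq, in which the Tn5 transposase places sequencing adapters into open chromatin, had been performed on sorted ILC2s from pancreas, lung, small intestine (SI), large intestine (LI), and bone marrow (BM), each with 2 libraries, which makes 10 in all. All mice were male C57BL/6 animals of 6 weeks, without a mutation or a treatment named in the labels. Each library came from 50000 sorted cells, pooled over 16 mice for BM, lung, and pancreas and over 10 mice for LI and SI. BM cells were gated on ST2 and CD25 with 1 sorter, whereas a different sorter was used for the other tissues, where SI cells were taken by CD45, CD127, Thy1, and KLRG1, and cells of the remaining 3 tissues by CD45, CD127, ST2, and CD25. In contrasts with BM, tissue cannot be told apart from gate and sorter, and in contrasts of SI with LI, lung, or pancreas it cannot be told apart from gate, whereas LI, lung, and pancreas shared both. The study's methods call the 2 libraries of a tissue biological duplicates without saying whether the pools of mice were separate, and p-values measure the spread between these libraries.

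ILC2s are tissue-resident lymphocytes that respond to epithelial cytokines and are best known for secreting IL-5 and IL-13. They can also make a second group of mediators, among them the growth factor amphiregulin, the haematopoietic cytokines GM-CSF and IL-3, the cytokines IL-9, IL-10, and IL-6, the arginine-degrading enzyme arginase 1, serotonin through tryptophan hydroxylase 1, and the neuropeptides enkephalin and calcitonin gene-related peptide (CGRP). An accessible region marks DNA that is open to regulatory proteins. Accessibility is not expression, and the gene with the nearest TSS need not be the gene that a region acts on.

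Total counts per library ranged from 10282987 to 32797872, and the 64 regions received 7325 to 28314 counts. Levels are given as CPM, counts divided by library sizes that were scaled with the TMM method of edgeR. The 2 SI libraries were the least alike over the 64 regions (Spearman correlation across regions 0.875, against 0.943 to 0.972 in the other tissues). Of 10 ILC2 marker genes, 9 had a promoter region, and their summed mean levels were 263 to 330 CPM per tissue. The promoter of *Il1rl1*, which encodes ST2, was lowest in SI with a mean of 2.94 CPM, against 6.53 to 21.1 CPM elsewhere. No promoter region was listed for the 4 B cell, 4 mast cell and basophil, or 4 acinar cell markers, whereas T cells had 2 of 5, with sums of 4.82 to 8.99 CPM, and epithelium 1 of 4, with 3.22 to 7.75 CPM. The only myeloid marker of 5 with a promoter region was *Spi1*, which encodes the transcription factor PU.1, and its level was 9.29 CPM in SI replicate 1, 2.195 CPM in SI replicate 2, and 0.386 to 3.92 CPM in the other libraries. Over all regions of the marker genes, sums per library were 2086 to 3590 CPM for ILC2 markers (182 regions). The lowest of these were in SI replicate 1 (2086 CPM) and SI replicate 2 (2581 CPM). Sums were 54.2 to 99.3 CPM for T cells (6), 41.4 to 72.4 CPM for myeloid cells (8), and 59.4 to 115.5 CPM for epithelium (11). The highest myeloid sum was in SI replicate 1. Acinar markers had 221 to 388 CPM (14, of which 9 were nearest to *Prss2*), with the highest sum in LI replicate 2 and 290 and 280 CPM in pancreas. Mast cells and basophils had 11.2 to 33.3 CPM (2), and B cells 6.96 to 24.9 CPM (1).

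The regions lay at 9 of the 10 genes. *Arg1* had 14, *Il6* 13, *Il10* 11, *Csf2* and *Calca* 6 each, *Areg* and *Il9* 5 each, *Tph1* 3, and *Il3* 1. No region was assigned to *Penk* (chr4:4133536-4138815), and the closest one on its chromosome had its centre 165.9 kb from the gene, nearest to the TSS of *Chchd7*. Of the 64 regions, 4 were promoter regions (centre within 1000 bp before or 100 bp after a TSS), at *Areg*, *Il6*, *Arg1*, and *Tph1*, 7 others had their centre inside a gene, and 53 were intergenic. Regions are named below by the distance of their centre from the nearest TSS, and coordinates follow mm10 as the table gives them. *Areg*, *Il6*, and *Il10* lie on the plus strand and the other genes on the minus strand.

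The DNA of 7 regions is shown. Of these, 6 differed among the tissues in the F-test described below. The remaining 1, the *Areg* promoter, holds the only exact cyclic AMP response element (CRE) consensus in the central 300 bases of the 64 regions. Each line is the plus strand of GRCm38, taken from RefSeq, and covers the central 300 bases of a region, except that the *Areg* promoter stretch stops before the first exon and has 215 bases. Capitals mark matches on either strand to TGANTCA, the consensus of AP-1, to TGACGTCA, the CRE, to AGATAA, which GATA factors bind, to TGTGGT, which RUNX factors bind, to GCGTG, the core of the AHR element, or to TTCNNNGAA, the consensus of STAT factors.
*Il9*, 13.4 kb upstream, chr13:56495537-56495836: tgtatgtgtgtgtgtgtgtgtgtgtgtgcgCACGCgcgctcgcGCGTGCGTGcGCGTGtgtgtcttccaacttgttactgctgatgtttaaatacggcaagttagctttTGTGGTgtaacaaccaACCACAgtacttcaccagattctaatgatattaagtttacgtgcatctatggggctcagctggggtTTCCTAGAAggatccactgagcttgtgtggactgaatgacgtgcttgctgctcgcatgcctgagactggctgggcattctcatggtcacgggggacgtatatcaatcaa
*Il10*, 26.0 kb upstream, chr1:130993717-130994016: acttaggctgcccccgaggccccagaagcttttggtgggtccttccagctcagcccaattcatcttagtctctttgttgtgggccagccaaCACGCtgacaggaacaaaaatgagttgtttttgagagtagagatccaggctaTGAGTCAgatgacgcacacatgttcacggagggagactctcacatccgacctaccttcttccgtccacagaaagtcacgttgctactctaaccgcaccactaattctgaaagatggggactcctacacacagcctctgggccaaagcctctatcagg
*Arg1*, 4.2 kb upstream, chr10:24931538-24931837: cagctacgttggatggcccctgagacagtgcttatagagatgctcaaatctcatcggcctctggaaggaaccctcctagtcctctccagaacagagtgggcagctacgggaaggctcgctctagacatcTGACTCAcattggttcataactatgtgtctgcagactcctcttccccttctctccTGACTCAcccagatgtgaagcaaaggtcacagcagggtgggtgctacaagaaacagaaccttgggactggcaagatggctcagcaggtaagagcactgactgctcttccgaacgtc
*Calca*, 10.0 kb upstream, chr7:114646220-114646519: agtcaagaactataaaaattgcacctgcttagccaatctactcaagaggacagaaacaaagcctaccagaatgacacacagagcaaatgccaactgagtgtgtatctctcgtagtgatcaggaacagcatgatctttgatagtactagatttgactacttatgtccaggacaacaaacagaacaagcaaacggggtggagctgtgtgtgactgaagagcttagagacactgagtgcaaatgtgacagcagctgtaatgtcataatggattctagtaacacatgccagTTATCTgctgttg
*Tph1* promoter, chr7:46667383-46667682: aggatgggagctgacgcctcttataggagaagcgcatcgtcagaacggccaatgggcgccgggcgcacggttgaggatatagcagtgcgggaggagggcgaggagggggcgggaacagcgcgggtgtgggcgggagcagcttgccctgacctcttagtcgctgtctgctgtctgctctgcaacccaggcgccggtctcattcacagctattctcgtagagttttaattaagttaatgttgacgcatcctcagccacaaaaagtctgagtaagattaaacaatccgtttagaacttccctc
*Areg*, 15.4 kb upstream, chr5:91124099-91124398: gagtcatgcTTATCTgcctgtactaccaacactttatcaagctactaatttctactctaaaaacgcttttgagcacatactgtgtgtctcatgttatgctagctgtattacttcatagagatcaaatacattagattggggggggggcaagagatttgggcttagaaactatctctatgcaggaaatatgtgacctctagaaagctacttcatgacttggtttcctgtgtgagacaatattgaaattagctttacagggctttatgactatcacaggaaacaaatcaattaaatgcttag
*Areg* promoter, chr5:91139384-91139598: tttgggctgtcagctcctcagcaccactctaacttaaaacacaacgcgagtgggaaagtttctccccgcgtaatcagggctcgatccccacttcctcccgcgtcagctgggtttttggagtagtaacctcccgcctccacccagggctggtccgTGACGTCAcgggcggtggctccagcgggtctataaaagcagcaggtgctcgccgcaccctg

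The *Il9* stretch holds 4 GCGTG matches, 2 of which overlap by a base, in or beside a dinucleotide repeat, together with 2 RUNX matches and 1 STAT match. At least 4 such matches occur in the central 300 bases of 1.07% of all 50039 regions. The *Arg1* stretch holds 2 AP-1 matches and the *Il10* stretch 1 AP-1 and 1 GCGTG match, while the *Calca* and the distal *Areg* stretch hold 1 GATA match each. The *Tph1* stretch has none of these 6 motifs. The shares below count exact matches in the central 300 bases of each region. Over all 64 regions, an AP-1 match was present in 18 (28.1%, against 18.3% of all regions), a GATA match in 15 (23.4% against 17.2%), a RUNX match in 23 (35.9% against 29.1%), a STAT match in 5 (7.8% against 7.9%), a CRE match in 1 (1.6% against 1.3%), and a GCGTG match in 7 (10.9% against 29.6%). Not capitalised above were AGGTCA, an element of nuclear receptors such as ROR, in 14 regions (21.9% against 18.0%), and GGAAA, the NFAT core, in 48 (75.0% against 61.4%). Few of the 64 regions are promoters, and outside promoters the share of all regions with GCGTG was 23.9% and that with AP-1 21.2%. A match describes the letters and does not show that a factor was bound.

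To find which regions varied with the tissue, an F-test over the 5 tissues was run in edgeR on all 49981 regions with a count, with Benjamini-Hochberg adjustment over all of them. Accessibility differed among tissues at 40 of the 64 regions (62.5%), compared with 44.2% of all tested regions. In pooled cells, fewer cells with a region open and less opening per cell cannot be told apart. Called regions made up 37 of the 60 regions outside promoters (61.7%, against 47.35% of all such regions). The genes divided unevenly. The excess over the 44.2% came mainly from *Il6* and *Il10*, while the shares at the other genes lay on both sides of it. At *Il6* 12 of 13 regions were called, at *Il10* 10 of 11, at *Tph1* 3 of 3, and at *Arg1* 8 of 14, whereas *Areg* and *Il9* had 2 of 5 each, *Calca* 2 of 6, *Csf2* 1 of 6, and *Il3* 0 of 1. The log2 fold change between the highest and the lowest tissue had a median of 1.32 over the 64 regions, of 3.36 over those of *Il10*, and of 0.54 over those of *Csf2*, with a median of 0.93 over all tested regions.

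**Figure D1:**
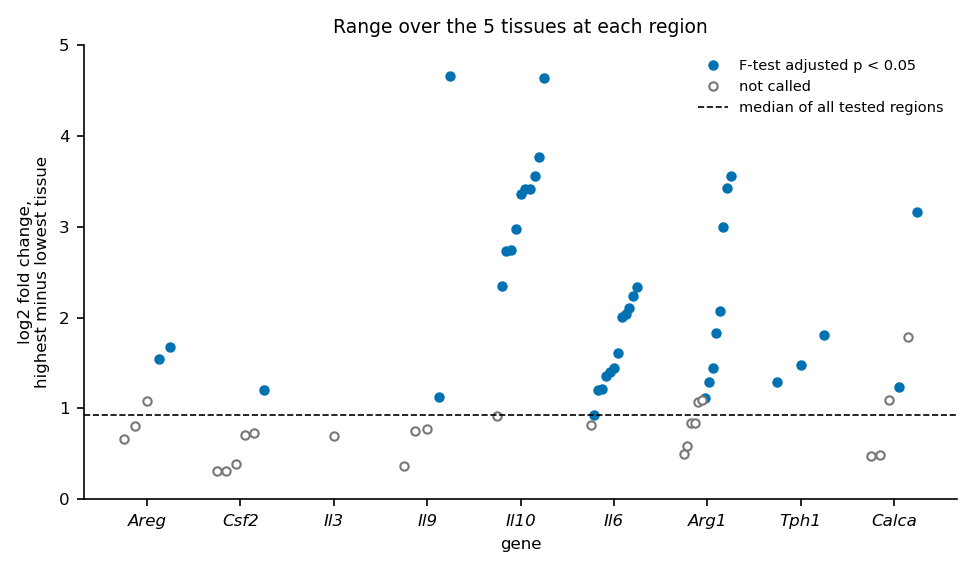
Log2 fold change between the tissues with the highest and lowest mean CPM (y axis) for each of the 64 regions, by gene (x axis), with regions called by the F-test (edgeR, adjusted p under 0.05) filled and the others open. The dashed line is the median of all 49981 tested regions, 0.93, and 10 of the 11 *Il10* regions lie well above it, but only 1 of the 6 *Csf2* regions does.

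SI and BM stood at the ends of most orders. By mean CPM, here and in the counts for each gene below, the level was highest in SI at 17 regions, in lung and pancreas at 16 each, in BM at 12, and in LI at 3, and it was lowest in BM at 24 and in SI at 21. Highest and lowest tissues were not counted over all regions, so whether these ranks are particular to these genes was not tested. Pairs that involved BM or SI held most of the differences in edgeR's contrasts. BM and SI differed at 34 of the 64 regions (53.1%, against 25.8% of all regions), 21 of them higher in SI. BM differed from pancreas at 24 (37.5%, against 24.2%), from LI at 22 (34.4%, against 30.9%), and from lung at 20 (31.2%, against 19%). SI differed from lung at 26 (40.6%, against 21%), from pancreas at 23 (35.9%, against 20.5%), and from LI at 9 (14.1%, against 8.44%). Lung differed from LI at 13 regions (20.3%, against 10.9%) and from pancreas at 10 (15.6%, against 5.82%), and LI and pancreas differed at 1 (1.56%, against 3.27%).

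A tissue-specific (TS) OCR is an open chromatin region whose level in 1 tissue exceeds that in all 4 remaining tissues, where every contrast has an unadjusted p under 0.05, and a commonly decreased region is lower in the same manner. SI had 9 TS OCRs among the 64 regions (2.8% of all tested regions were called), and BM, lung, and pancreas had 4 each (4.5%, 1.3%, and 1.43% of all). LI had none in edgeR or DESeq2 (1.3% of all). BM had 9 commonly decreased regions (6.63% of all) and SI 4 (3.59%). Most of the SI TS OCRs and most of the BM decreases lay at *Il10* alone. Lung, pancreas, and LI had none in either tool, where 1.72%, 0.572%, and 0.132% of all regions were called. The 34 calls fell on 26 regions, and 12 of the calls were made in each of 17 alternative fits, which changed the scaling, filter, tool, or depth, added the replicate number as a block, removed trends in GC content and width, or left out a library. The changed filter removed no tested region, so that fit repeated the main one and could not lose a call. Those 12 calls lay at *Il10*, *Il6*, *Arg1*, and *Calca* and are named below. Most contrasts quoted below are of the highest and lowest tissue by observed mean, or of neighbours in that order. Their p-values are not adjusted for that choice.

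**Figure D2:**
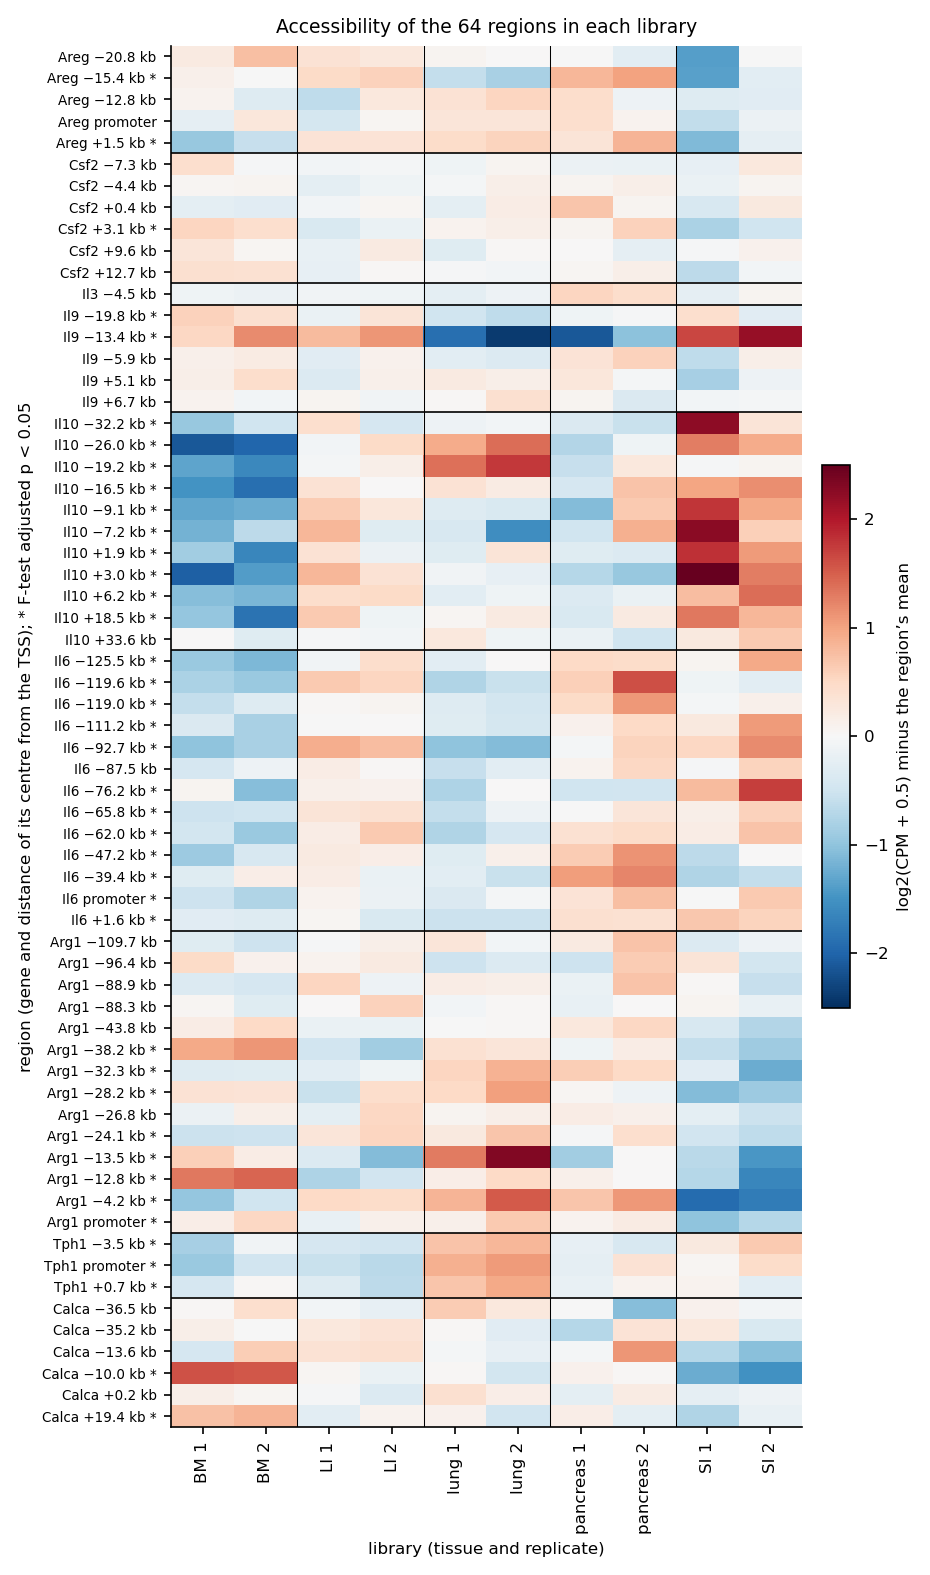
Accessibility of the 64 regions (rows, ordered by gene and position, an asterisk for an F-test adjusted p under 0.05) in the 10 libraries (columns), as log2(CPM + 0.5) minus the mean of the region, with red above and blue below that mean. The *Il10* block is blue in both BM libraries and red in both SI libraries at most regions, the 3 *Tph1* rows are red in lung, and the *Csf2* rows show little colour.

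*Il9* encodes IL-9, a cytokine that sustains ILC2s and mast cells. One of its 5 regions, 13.4 kb upstream (chr13:56495382-56495991), showed the largest difference of all 64. It measured 19.4 and 27.9 CPM in SI, 10.4 and 12.99 CPM in LI, and 8.56 and 13.7 CPM in BM, but 0.942 and 2.59 CPM in pancreas and 1.22 and 0.690 CPM in lung. The 6 libraries of SI, LI, and BM were thus all above the 4 of lung and pancreas, without overlap. The log2 fold change of SI over lung was 4.66 ± 0.42 (SE, adjusted p = 2.28e-06), and that of BM over lung was 3.57 ± 0.41 (SE, adjusted p = 2.27e-05). LI exceeded lung by 3.65 ± 0.41 (SE, adjusted p = 8.86e-05). SI also lay above LI by 1.01 ± 0.35 (SE, adjusted p = 0.0809), which met the unadjusted threshold of a TS OCR, whereas LI and BM differed by 0.07 with an adjusted p of 0.894. The SI TS call was not made without BM replicate 1, LI replicate 1, or SI replicate 2, while the gap of SI over lung stayed past the threshold in each fit.

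The other 4 *Il9* regions moved much less. The most accessible of them, 5.1 kb downstream (chr13:56476865-56477400), measured 83.4 and 102 CPM in BM, 58.8 and 82.4 CPM in LI, 87.8 and 82.7 CPM in lung, 91.5 and 72.8 CPM in pancreas, and 41.7 and 68.5 CPM in SI. BM, lung, and pancreas lay wholly above SI, and BM exceeded SI by 0.75 ± 0.24 (SE, adjusted p = 0.0275). That pair was picked as the highest and lowest tissue by mean, and the F-test over the 5 tissues did not pass (adjusted p = 0.0929). This was the region with the highest mean level among the 64, at 77.2 CPM. A second called region, 19.8 kb upstream, had an adjusted p of 0.0452 and was not called in 8 of the alternative fits.

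*Il10* encodes IL-10, which restrains inflammation. SI was the highest tissue at 9 of its 11 regions, and BM was the lowest at 10. Both BM libraries were below the other 8 at 8 regions, and both SI libraries were above the other 8 at 6. Such separation was not counted over all regions, so these counts have no background. By the rule of a commonly decreased region, BM was called at 8 of the 11, against 6.63% of all tested regions. The 11 regions spread from 32.2 kb upstream to 33.6 kb downstream of the TSS, and the gene had no promoter region in the table. The summed level of the 11 regions was 17.4 and 15.0 CPM in BM, 31.8 and 47.4 CPM in pancreas, 62.6 and 54.2 CPM in LI, 58.1 and 69.3 CPM in lung, and 143 and 98.7 CPM in SI.

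The largest difference at *Il10* was in its intron 4, 3.0 kb downstream of the TSS (chr1:131022562-131023092). This region measured 29.8 and 9.44 CPM in SI, 6.799 and 4.78 CPM in LI, 3.37 and 3.06 CPM in lung, 2.002 and 1.62 CPM in pancreas, and 0.489 and 1.06 CPM in BM. Both SI libraries were above all others and both BM libraries below, although the SI libraries differed by more than those of any other tissue. SI exceeded BM by a log2 fold change of 4.64 ± 0.52 (SE, adjusted p = 1.66e-05) and LI by 1.77 ± 0.43 (SE, adjusted p = 0.0171). Nearby in intron 3, 1.9 kb downstream (chr1:131021396-131022040), the levels were 19.1 and 11.1 CPM in SI, 6.62 and 4.47 CPM in LI, 3.96 and 6.43 CPM in lung, 4.004 and 3.88 CPM in pancreas, and 2.54 and 1.29 CPM in BM, again with SI wholly above and BM wholly below the rest. Here SI exceeded LI by 1.46 ± 0.37 (SE, adjusted p = 0.0205) and BM by 2.97 ± 0.39 (SE, adjusted p = 6.73e-05), and its SI TS call was made in all 17 alternative fits.

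Lung rather than SI led at a pair of upstream regions. The one 26.0 kb upstream (chr1:130993579-130994153), whose sequence is given above, had the highest mean level and the smallest p of the gene. Its levels were 17.5 and 24.5 CPM in lung, 22.3 and 17.4 CPM in SI, 8.46 and 12.6 CPM in LI, 5.18 and 8.305 CPM in pancreas, and 1.66 and 1.89 CPM in BM. BM was below every other library, and lung exceeded it by 3.56 ± 0.33 (SE, adjusted p = 4.31e-06), while lung and SI overlapped (adjusted p = 0.878). At 19.2 kb upstream (chr1:131000346-131000846) lung stood alone, with 7.88 and 10.4 CPM, against 2.62 and 3.04 CPM in LI, 2.65 and 2.89 CPM in SI, 1.65 and 3.34 CPM in pancreas, and 0.783 and 0.552 CPM in BM. The lung libraries were above and the BM libraries below all others. Lung exceeded LI by 1.68 ± 0.38 (SE, adjusted p = 0.00826) and SI by 1.72 ± 0.37 (SE, adjusted p = 0.00312), and both the lung TS call and the BM decrease were made in all 17 alternative fits, as was the BM decrease 26.0 kb upstream.

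SI TS calls were also made 6.2 kb downstream (chr1:131025714-131026287), 18.5 kb downstream (chr1:131038033-131038605), and 32.2, 16.5, and 9.1 kb upstream (chr1:130987436-130987936, chr1:131002999-131003672, and chr1:131010467-131010967). Except 32.2 kb upstream, BM was commonly decreased at each of them. Over the next tissue by mean, SI passed only the unadjusted threshold at all 5, with adjusted p from 0.0697 to 0.2025. At 6.2 kb downstream the levels were 16.6 and 25.7 CPM in SI, 13.1 and 13.4 CPM in LI, and 4.31 and 4.003 CPM in BM, with SI over BM by 2.35 ± 0.27 (SE, adjusted p = 2.03e-05). The log2 fold change of SI over BM was 3.41 ± 0.45 (SE, adjusted p = 5.92e-05) at 16.5 kb upstream. It was 3.36 ± 0.57 (SE, adjusted p = 0.000491) at 9.1 kb upstream, and 18.5 kb downstream it was 2.74 ± 0.40 (SE, adjusted p = 0.000153). Of these, the BM decreases 16.5 kb upstream and 6.2 and 18.5 kb downstream were made in all 17 alternative fits. Without LI replicate 2 the SI TS calls at all 5 of these positions were lost. The call 16.5 kb upstream was also lost without lung replicate 1, lung replicate 2, pancreas replicate 1, or SI replicate 2, and that 9.1 kb upstream without LI replicate 1, SI replicate 1, pancreas replicate 1, or either library of BM or lung. The call 6.2 kb downstream was also lost without LI replicate 1 or SI replicate 2, and that 18.5 kb downstream without lung replicate 1, pancreas replicate 1, or SI replicate 1. The SI TS call 16.5 kb upstream was lost with thinned counts as well, and that 9.1 kb upstream with the replicate number as a block. The BM decrease in intron 3 was lost without either pancreas library or BM replicate 2. That in intron 4 was lost without either pancreas library or BM replicate 1, with thinned counts, and with GC and width trends removed. At 9.1 kb upstream it was lost with thinned counts and without either BM or lung library or pancreas replicate 2.

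SI replicate 1, the library with the highest *Spi1* promoter level, was above SI replicate 2 at 7 of the 11 *Il10* regions, and at 18 of the other 53 regions. The part of this in the SI results was not tested. Without SI replicate 1, the log2 fold change of SI over BM in intron 4 was 3.57 instead of 4.64 (adjusted p = 1.74e-05) and the SI TS call there was lost. At 32.2 kb upstream, where the levels were 11.1 and 2.58 CPM in SI and 0.783 and 1.24 CPM in BM, it was 1.32 instead of 2.73 and no longer past the threshold (adjusted p = 0.155), and it also missed the threshold without BM replicate 1 (2.44, adjusted p = 0.0513). Without SI replicate 1, SI exceeded BM past the threshold at each of the other 6 regions named for that contrast, by 2.45 to 3.57, and the calls 9.1 kb upstream and 18.5 kb downstream as SI TS OCRs were also lost.

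**Figure D3:**
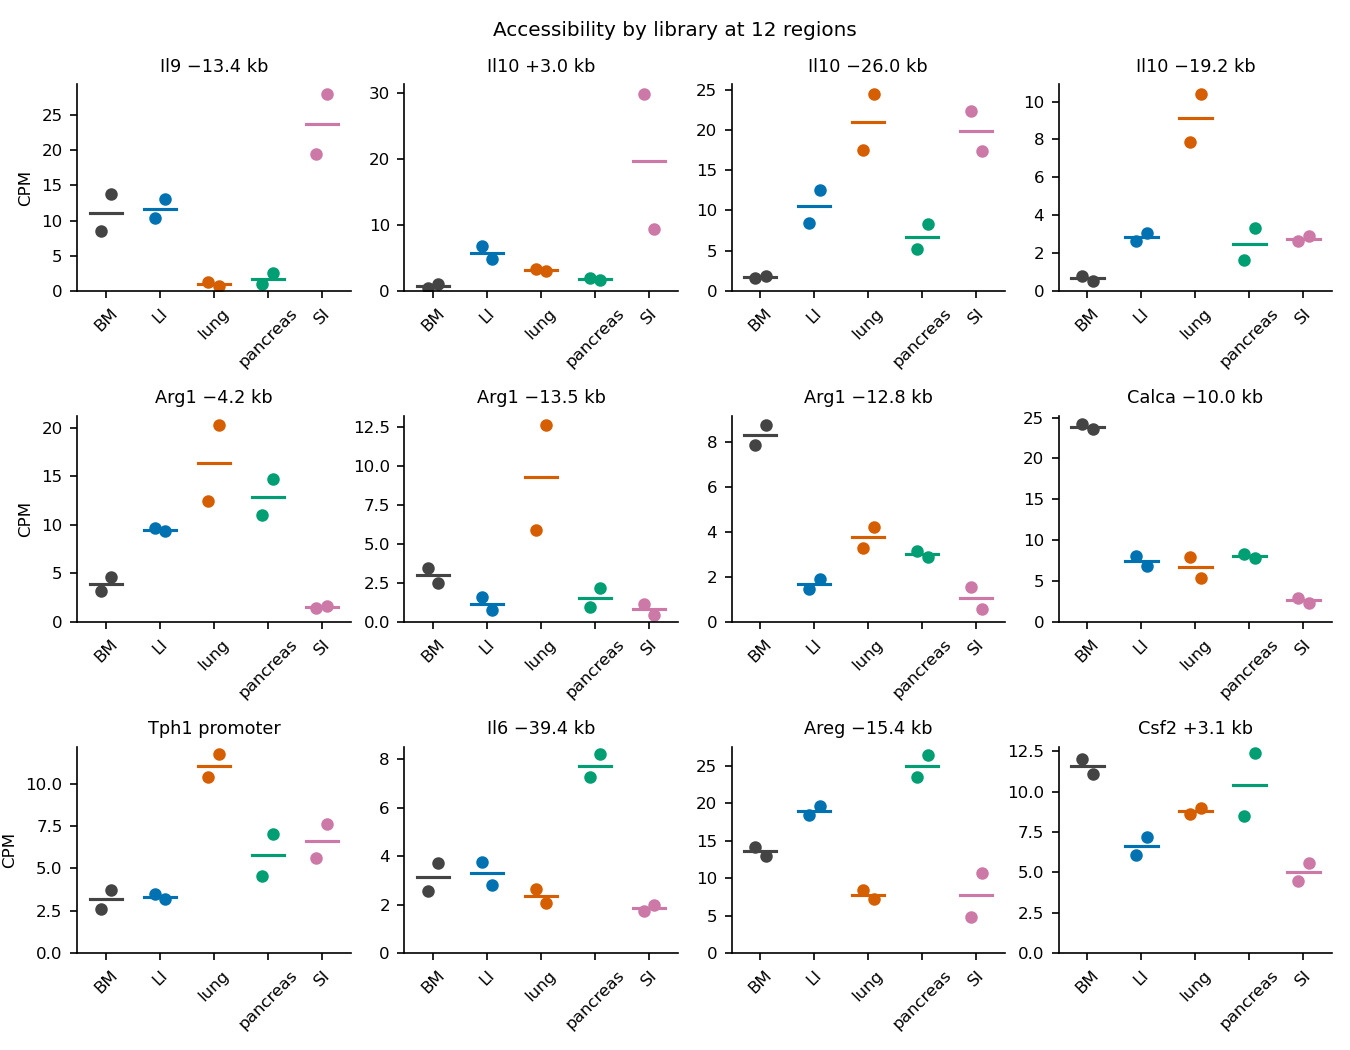
Accessibility in CPM (y axis, linear and starting at 0) at 12 regions in each library (points) of the 5 tissues (x axis), with a line at the mean of the 2 libraries. The *Il9* panel is near 0 in lung and pancreas, the *Il10* panels are lowest in BM, and the panels for *Arg1* 13.5 and 12.8 kb upstream are highest in lung and in BM, respectively.

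*Il6* encodes IL-6, a cytokine with roles in inflammation and B cell help. At 12 of its 13 regions, which reached from 125.5 kb upstream to 1.6 kb downstream of the TSS, the tissues differed. Pancreas or SI was the highest tissue at each of the 13, pancreas at 6 and SI at 7, whereas BM was lowest at 8. The promoter region (chr5:30012820-30013371) measured 20.7 and 27.7 CPM in pancreas, 16.3 and 25.8 CPM in SI, 17.4 and 14.6 CPM in LI, 12.6 and 15.6 CPM in lung, and 11.3 and 9.48 CPM in BM. Both BM libraries were the lowest, the other tissues overlapped their neighbours, and pancreas exceeded BM by 1.22 ± 0.26 (SE, adjusted p = 0.00381). That value fell to 1.00 without pancreas replicate 2 and no longer passed (adjusted p = 0.0592).

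Pancreas had 3 TS OCRs at *Il6*. Over LI, the next tissue by mean, it passed only the unadjusted threshold at each. The adjusted p of that contrast was 0.0744 at 39.4 kb upstream, 0.262 at 47.2 kb, and 0.264 at 119.0 kb. The region 39.4 kb upstream (chr5:29973476-29973979) measured 7.24 and 8.197 CPM in pancreas, 3.75 and 2.82 CPM in LI, 2.54 and 3.73 CPM in BM, 2.63 and 2.04 CPM in lung, and 1.73 and 1.99 CPM in SI. Both pancreas libraries were well above the other 8, pancreas exceeded SI by 2.04 ± 0.37 (SE, adjusted p = 0.000979), and the call was made in all 17 alternative fits. At 47.2 kb upstream (chr5:29965694-29966210), pancreas had 12.7 and 17.8 CPM and the other libraries 4.01 to 9.42 CPM, and at 119.0 kb upstream (chr5:29893846-29894368) it had 5.3 and 8.305 CPM and the others 2.25 to 4.04 CPM. Pancreas was above BM by 1.61 ± 0.32 (SE, adjusted p = 0.00189) at the first and by 1.40 ± 0.35 (SE, adjusted p = 0.00946) at the second. Both of these TS calls were lost without LI replicate 1, LI replicate 2, or pancreas replicate 2, that at 47.2 kb also without lung replicate 1, and that at 119.0 kb also without SI replicate 1 and with library size as the only scaling. The excess of pancreas over BM at 119.0 kb no longer passed without BM replicate 1 or pancreas replicate 2.

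A different order appeared 92.7 kb upstream (chr5:29920073-29920774), the *Il6* region with the smallest p. Levels were 9.29 and 14.9 CPM in SI, 12.3 and 11.2 CPM in LI, 6.12 and 9.599 CPM in pancreas, 2.89 and 3.405 CPM in BM, and 2.901 and 2.73 CPM in lung. All 6 libraries of SI, LI, and pancreas were above the 4 of BM and lung, and SI exceeded lung by 2.11 ± 0.31 (SE, adjusted p = 0.000169). SI and LI did not differ past the threshold (0.05, adjusted p = 0.94), nor did BM and lung (0.16, adjusted p = 0.776). SI had a TS OCR 76.2 kb upstream (chr5:29936696-29937196), with 3.32 and 6.76 CPM against 0.552 to 1.92 CPM in the other libraries, a call that was lost without LI replicate 1, LI replicate 2, or SI replicate 2. There, SI over LI passed only the unadjusted threshold (adjusted p = 0.125). BM was commonly decreased 125.5 kb upstream (chr5:29887358-29887858), with 1.17 and 0.966 CPM against 2.16 to 5.71 CPM, and this call was lost without BM replicate 2 or lung replicate 2.

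*Arg1* encodes arginase 1, which converts arginine to ornithine and urea. SI was the lowest tissue at 10 of its 14 regions and lung the highest at 6. The promoter region (chr10:24927406-24928574) was open in all tissues, with 39.2 and 50.02 CPM in BM, 30.7 and 38.3 CPM in LI, 38.2 and 55.1 CPM in lung, 37.2 and 40.01 CPM in pancreas, and 16.99 and 21.2 CPM in SI. Both SI libraries lay below the other 8, most of which overlapped, and lung exceeded SI by 1.29 ± 0.22 (SE, adjusted p = 0.000667). The region 4.2 kb upstream (chr10:24931433-24931941), which holds the AP-1 matches shown above, fell further in SI, to 1.396 and 1.64 CPM, compared with 3.18 and 4.602 CPM in BM, 9.68 and 9.38 CPM in LI, 11.1 and 14.8 CPM in pancreas, and 12.4 and 20.3 CPM in lung. SI was below all other libraries and BM below the 6 of LI, pancreas, and lung. Lung exceeded SI by 3.42 ± 0.33 (SE, adjusted p = 4.04e-06), BM exceeded SI by 1.35 ± 0.33 (SE, adjusted p = 0.00657), and LI exceeded BM by 1.29 ± 0.31 (SE, adjusted p = 0.0049). The SI decreases at the promoter and 4.2 kb upstream were made in all 17 alternative fits.

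A pair of *Arg1* regions 182 bases apart had different leading tissues. At 13.5 kb upstream (chr10:24940712-24941212) the levels were 5.92 and 12.6 CPM in lung, 3.47 and 2.48 CPM in BM, 0.942 and 2.16 CPM in pancreas, 1.57 and 0.739 CPM in LI, and 1.16 and 0.453 CPM in SI, and it was a lung TS OCR. At 12.8 kb upstream (chr10:24940022-24940529) they were 7.88 and 8.79 CPM in BM, 3.29 and 4.25 CPM in lung, 3.18 and 2.91 CPM in pancreas, 1.48 and 1.91 CPM in LI, and 1.54 and 0.592 CPM in SI, and it was a BM TS OCR. In each region the leading tissue did not overlap any other. Lung exceeded BM by 1.64 ± 0.49 (SE, adjusted p = 0.0271) in the first, and BM exceeded lung by 1.14 ± 0.38 (SE, adjusted p = 0.0455) in the second, with the 2 contrasts of opposite sign each past the threshold. The lung call was lost without lung replicate 2, and the BM call without BM replicate 2 or lung replicate 1.

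Farther upstream, the region at 38.2 kb (chr10:24965441-24965967) was a TS OCR of BM, with 6.02 and 6.76 CPM in BM against 1.32 to 3.92 CPM in the other libraries. BM exceeded SI by 2.07 ± 0.37 (SE, adjusted p = 0.00071), but BM and lung differed only at the unadjusted threshold (adjusted p = 0.146), and the call was lost in 8 of the 17 alternative fits, namely with library size alone, the replicate block, or thinned counts and without BM replicate 1, BM replicate 2, lung replicate 1, lung replicate 2, or pancreas replicate 1. SI was commonly decreased 28.2 kb upstream (chr10:24955431-24955959), with 9.003 and 10.2 CPM against 13.2 to 40.6 CPM, and lung exceeded SI by 1.84 ± 0.29 (SE, adjusted p = 0.000274). This call was lost without LI replicate 2. The most accessible *Arg1* region, 26.8 kb upstream (chr10:24953954-24954582), ranged from 27.8 to 58.0 CPM and was not called (F-test adjusted p = 0.201).

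*Tph1* encodes tryptophan hydroxylase 1, the rate-limiting enzyme of serotonin synthesis outside the nervous system. Lung was highest at each of its 3 regions. The promoter region (chr7:46667262-46667803) lies upstream of the shorter transcripts and in intron 1 of the longest, and it measured 10.4 and 11.7 CPM in lung, 5.58 and 7.59 CPM in SI, 4.53 and 7.01 CPM in pancreas, 3.49 and 3.17 CPM in LI, and 2.59 and 3.73 CPM in BM. The lung libraries were above all others, and lung exceeded BM by 1.804 ± 0.31 (SE, adjusted p = 0.00068) and SI by 0.74 ± 0.30 (SE, adjusted p = 0.0913), the latter past the unadjusted threshold alone. In intron 1, 0.7 kb downstream of the other TSS (chr7:46671591-46672104), lung had 6.51 and 7.87 CPM and the other libraries 2.26 to 4.10 CPM, so that it was also a lung TS OCR. Over pancreas, the next tissue by mean, lung passed only the unadjusted threshold (adjusted p = 0.107). Lung exceeded LI there by 1.48 ± 0.35 (SE, adjusted p = 0.0108), a value that no longer passed without LI replicate 2 or lung replicate 2. The region 3.5 kb upstream (chr7:46675744-46676282), the most accessible of the 3, had 16.8 and 18.5 CPM in lung and 12.04 and 16.3 CPM in SI, against 5.43 to 9.48 CPM in the other libraries. Lung and SI were both above the rest and did not differ from each other past the threshold (adjusted p = 0.47), and the excess of lung over LI, 1.29 ± 0.28 (SE, adjusted p = 0.00693), no longer passed without LI replicate 2 or lung replicate 2. Both lung TS calls were lost without lung replicate 2 or pancreas replicate 1, that of the promoter also without SI replicate 1, and that in intron 1 also without SI replicate 2.

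*Calca* encodes the precursors of calcitonin and of the neuropeptide CGRP. Its region 10.0 kb upstream (chr7:114646099-114646639) was both a TS OCR of BM and commonly decreased in SI. It measured 24.2 and 23.6 CPM in BM, 8.02 and 6.82 CPM in LI, 7.92 and 5.44 CPM in lung, 8.36 and 7.87 CPM in pancreas, and 2.98 and 2.37 CPM in SI. The libraries formed 3 levels without overlap, with BM at the top, LI, lung, and pancreas in the middle, and SI at the bottom. BM exceeded SI by 3.16 ± 0.28 (SE, adjusted p = 2.28e-06), BM exceeded pancreas by 1.55 ± 0.26 (SE, adjusted p = 0.000575), and lung exceeded SI by 1.32 ± 0.27 (SE, adjusted p = 0.00237). Both calls were made in all 17 alternative fits. The region 19.4 kb downstream (chr7:114616658-114617182), the most accessible at the gene, was a second BM TS OCR, with 62.2 and 66.9 CPM in BM against 21.9 to 41.5 CPM in the other libraries. BM exceeded SI there by 1.24 ± 0.25 (SE, adjusted p = 0.0015), and the call was lost without pancreas replicate 2. In intron 1, 0.2 kb downstream of a TSS, the level was 14.3 to 24.2 CPM in all libraries and did not pass the F-test (adjusted p = 0.299).

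**Figure D4:**
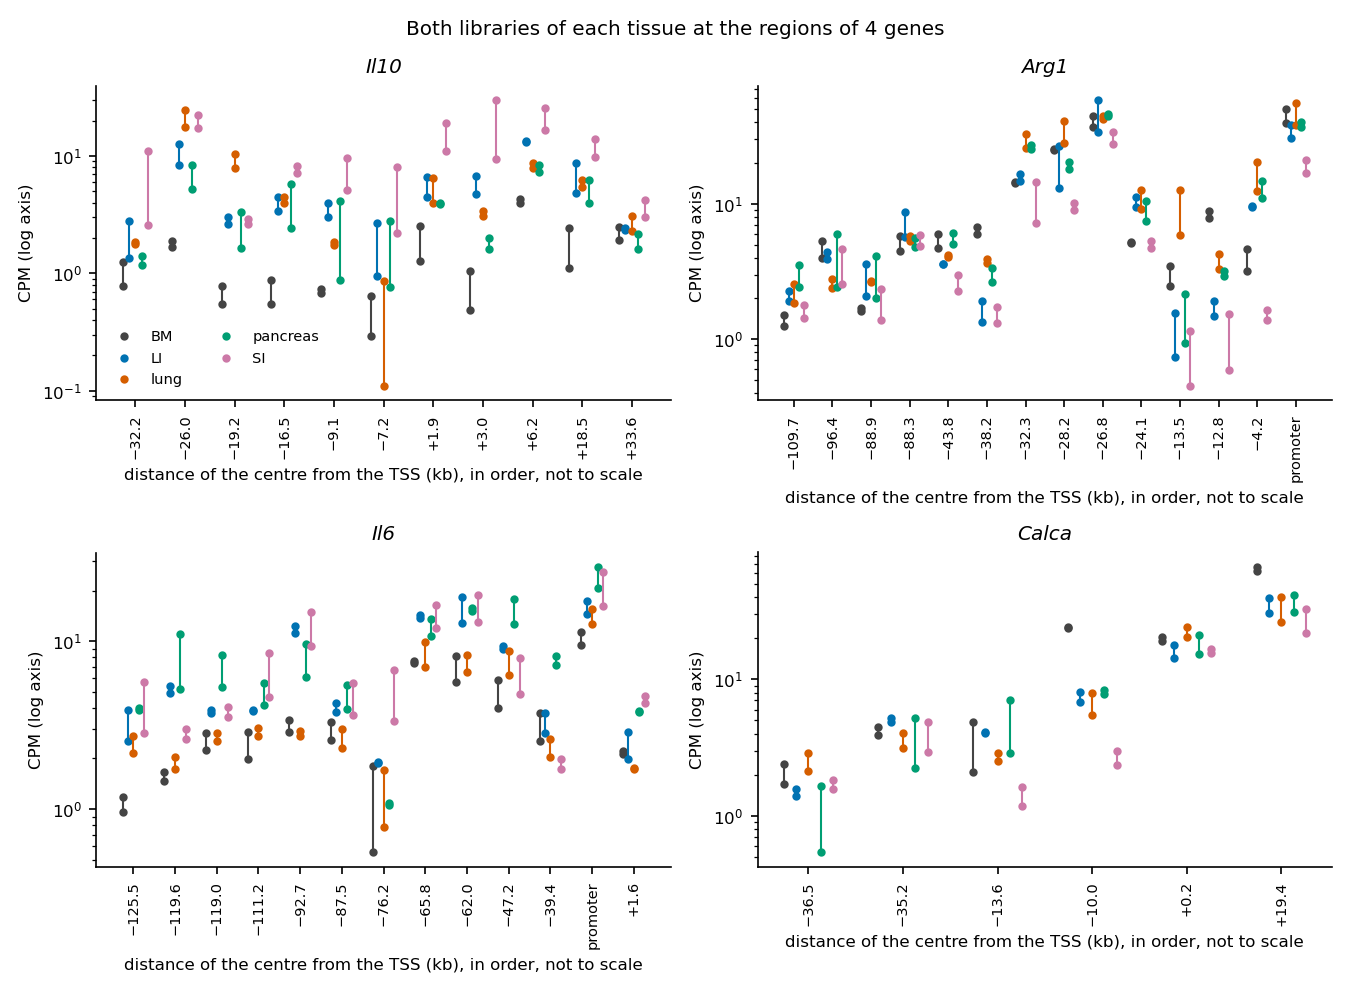
Accessibility in CPM (y axis, logarithmic) in both libraries of each tissue (points joined by a line) at every region of *Il10*, *Arg1*, *Il6*, and *Calca*, in order of distance from the TSS (x axis, not to scale). BM is lowest over most of *Il10* and *Il6*, SI is lowest over most of *Arg1*, and BM stands above the other tissues at 2 *Calca* regions.

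*Areg* encodes amphiregulin, a ligand of the epidermal growth factor (EGF) receptor with a role in tissue repair. Its promoter region (chr5:91139242-91139824), which holds the CRE consensus shown above, was its most accessible region and measured 26.9 and 38.5 CPM in BM, 23.1 and 32.8 CPM in LI, 38.97 and 39.2 CPM in lung, 42.6 and 33.8 CPM in pancreas, and 20.5 and 28.6 CPM in SI. Most tissues overlapped, the F-test did not pass (adjusted p = 0.106), and lung exceeded SI by 0.67 ± 0.24 (SE, adjusted p = 0.0573). That contrast passed in 5 of the alternative fits, with 0.94 without SI replicate 2 as the largest value (adjusted p = 0.0187). The region 15.4 kb upstream (chr5:91123984-91124513) had the smallest p, with 23.6 and 26.5 CPM in pancreas, 18.4 and 19.7 CPM in LI, 14.2 and 12.9 CPM in BM, 8.39 and 7.204 CPM in lung, and 4.77 and 10.8 CPM in SI. The libraries of pancreas, LI, and BM did not overlap one another and lay above those of lung and SI, but neither pancreas over LI (0.39, adjusted p = 0.618) nor LI over BM (0.49, adjusted p = 0.218) passed the threshold. Pancreas exceeded SI by 1.67 ± 0.30 (SE, adjusted p = 0.000932) and lung by 1.68 ± 0.30 (SE, adjusted p = 0.0044), and no tissue met the rule of a TS OCR. In exon 2 of *Areg*, 1.5 kb downstream, the levels were 1.66 and 2.301 CPM in BM, 1.44 and 3.1 CPM in SI, and 4.71 to 7.01 CPM elsewhere, and pancreas exceeded BM by 1.54 ± 0.40 (SE, adjusted p = 0.0106).

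*Csf2*, which encodes GM-CSF, and *Il3*, which encodes a growth factor of basophils and mast cells, are neighbours on chromosome 11. Their regions had the smallest median differences of the 9 genes between the highest and lowest tissue, 0.54 and 0.70 on the log2 scale. Only the *Csf2* region 3.1 kb downstream of the TSS and beyond the end of the gene (chr11:54246528-54247043) passed the F-test (adjusted p = 0.0102). It measured 12.04 and 11.1 CPM in BM, 8.48 and 12.4 CPM in pancreas, 8.62 and 8.97 CPM in lung, 6.102 and 7.21 CPM in LI, and 4.48 and 5.57 CPM in SI. The SI libraries were below all others and BM exceeded SI by 1.20 ± 0.27 (SE, adjusted p = 0.00358). The most accessible *Csf2* region, 9.6 kb downstream (chr11:54239888-54240683), ranged from 22.03 to 33.5 CPM over the 10 libraries (F-test adjusted p = 0.676). In exon 1 of *Csf2*, where the region is centred 0.4 kb downstream of the TSS, levels were 18.2 to 39.5 CPM, with an adjusted p of 0.206. The single *Il3* region, 4.5 kb upstream (chr11:54271409-54272065), had 18.3 and 17.04 CPM in pancreas and 10.4 to 12.99 CPM in the other libraries. It met the rule of a pancreas TS OCR although the F-test did not pass (adjusted p = 0.0676), and pancreas exceeded lung by 0.70 ± 0.23 (SE, adjusted p = 0.0792), a contrast that passed when SI replicate 1 or SI replicate 2 was left out (adjusted p = 0.0422 and 0.0436). The call was lost in 7 of the 17 alternative fits, namely with library size alone or thinned counts and without LI replicate 1, LI replicate 2, lung replicate 1, pancreas replicate 1, or SI replicate 1.

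To show what else in the genome followed the same pattern, the Pearson correlation of log2 CPM over the 10 libraries was computed with all tested regions more than 1 Mb away and outside the 10 genes. The 10 points are 5 pairs of libraries of the same tissue, and with so many regions high values must occur, so these are descriptions without a test. The closest regions to *Arg1* 4.2 kb upstream were nearest to *Gm35244*, *Gnaz*, and *Fam102b* (r of 0.988, 0.985, and 0.985). Those closest to *Areg* 15.4 kb upstream were at *Lix1*, *Nrgn*, and *Vegfc* (0.971, 0.970, and 0.966), and those closest to *Csf2* 3.1 kb downstream were at *Sptb*, *Selenof*, and *Ccdc12* (0.973, 0.963, and 0.962).

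Genes that act with these effectors were taken from lists chosen by function. Receptors of the ligands had 67 regions, of which 35 were called by the F-test (52.2%) and 17 were commonly decreased in SI, where 3.59% of all regions were. The list of 10 ILC2 marker genes likewise had 38 of 182 regions commonly decreased in SI. Of the 17 at receptors, *Ramp1*, which encodes a subunit of the CGRP receptor, held 10 of its 11 regions, *Il6ra* 3 of 4, *Il10ra* 2 of 5, and *Calcrl*, the other CGRP receptor subunit, 2 of 9. The *Ramp1* promoter had a mean of 6.58 CPM in SI and of 15.6 to 22.4 CPM in the other tissues. Other ILC2 cytokines and chemokines had 32 of 55 regions called (58.2%), with *Il13* at 8 of 9. Lists closer to the background were arginine and polyamine metabolism with 17 of 39 (43.6%), genes of serotonin handling with 8 of 18 (44.4%), neuropeptides and their processing with 12 of 27 (44.4%), and EGF receptor ligands and receptors with 4 of 11 (36.4%). No test was run on these lists, and they are given beside the 44.2% of all regions.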

How the data were processed

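Per the paper's methods and the labels, the authors mapped reads to mm10 with Bowtie2 (2.2.9), called peaks with MACS2 (2.1.1) in each library, kept those present in both replicates of a tissue, merged them over tissues, and counted reads per merged region. The deposited table holds raw counts of 50039 regions in 10 libraries, with coordinates and no gene names. The handling of duplicate or mitochondrial reads and of the transposase shift is not given in the sources used here. Reads are not independent molecules, so totals bound the counting error only.

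Regions with at least 1 count (49981) were fitted in edgeR 4.0.16 (TMM, glmQLFit, glmQLFTest) with tissue as the factor and all 10 libraries sharing the spread. Tests were an F-test over 5 tissues and 10 pairwise contrasts, with Benjamini-Hochberg adjustment over all regions within each test. The choice of a pair by the observed means was not adjusted for. Scripts were tested on simulated data. Genes came from curated RefSeq transcripts of GRCm38, whose chromosome names and lengths match mm10. At each gene, the promoter region, the regions with the highest mean CPM and the smallest F-test p, and every TS OCR or commonly decreased region are described. Regions 19.8 kb upstream of *Il9* and 0.4, 1.5, and 0.2 kb downstream of *Csf2*, *Areg*, and *Calca* were chosen after their values were seen. Alternatives were library size alone, DESeq2 size factors, a filter of 10 counts in 2 libraries, DESeq2 1.42.0, a replicate block, thinned counts, removed trends in GC content and width (loess), each library left out, stricter TS rules, and other rules of gene assignment. The genes, lists, and motifs were chosen with earlier results of these data known.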

Additional observations from a re-analysis of the deposited data

How the results depend on the processing

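The count of 40 called regions was 39 with library size alone, 42 with DESeq2's size factors, 45 with DESeq2, 40 with thinned counts, 45 with GC and width trends removed, and 35 to 45 with a library left out, and 27 of the 40 regions were called in all 17 fits. Called regions numbered 40 by nearest TSS alone and 42 within 50 kb of a TSS. The filter of 10 counts in 2 libraries left the same 49981 regions, so its fit repeated the main one. The median of all regions shifted by up to 0.25 (log2) in a contrast with library size alone.

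Requiring an adjusted p in each contrast left 2 TS OCRs in SI, 2 in lung, and 0 in pancreas (4 at the unadjusted threshold in edgeR), and 5 decreased regions in BM. Requiring a log2 fold change above 1 left 2 TS OCRs in BM, 2 in lung, and 1 in pancreas, and 2 decreased regions in SI. Library size alone left 2 pancreas TS OCRs. With each library left out in turn, TS OCRs numbered 2 to 4 in BM (2 without BM replicate 2 or lung replicate 1), 1 to 4 in lung (1 without lung replicate 2, 2 without pancreas replicate 1), 1 to 5 in pancreas (1 without either LI library, 2 without lung replicate 1 or SI replicate 1), and 3 to 9 in SI (3 without LI replicate 2, 5 without LI replicate 1 or SI replicate 1). Decreased regions numbered 6 to 10 in BM, 3 to 9 in SI (8 and 9 without SI replicate 1 and 2), and 0 to 1 in lung (1 without lung replicate 1, pancreas replicate 1, or SI replicate 2). The lone library left in a tissue was assumed to vary like the others. The cause was not tested.

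Of 595 alternative values for the contrasts of named regions, 571 kept direction and side of the threshold, 16 no longer passed, 8 newly passed, and none changed sign. The values under the changed filter are among the 571 and could not differ from the main ones. Replicate numbers are shared across tissues, but deviations of same-numbered libraries correlated at only -0.22 to 0.20 over pairs of tissues, so the numbers are not taken as pairs. With the replicate number as a block, 41 regions were called, and the SI TS call 9.1 kb upstream of *Il10* and the BM TS call 38.2 kb upstream of *Arg1* were lost. Depth limits regions near 1 CPM, where pancreas replicate 2 holds few counts.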
